A study of Saccharomyces cerevisiae with 6 samples.

Results

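The large ribosomal subunit of budding yeast (Saccharomyces cerevisiae) is built by assembly factors, proteins that bind the ribosomal RNA precursor in the nucleolus and leave before the subunit starts to translate. A list of 40 genes for such factors, given by systematic name, was followed here. Of these, 39 had a row among the 6282 genes of the deposited table, all 39 with a value on each of the 6 arrays. The name YPL043C had no row. The table holds YPL043W, which RefSeq names NOP4, and its values are given separately.

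Each 2-colour array compared RNA of a hypoxic culture with RNA of an aerobic culture of the same strain. The 3 hap1 deletion arrays used cells without HAP1, which encodes a heme-responsive transcription factor, and the 3 wild-type arrays used cells with it. The labels give no further genotype, no oxygen level and no duration. By the design text the replicates were separate cultures from different days. Values are log2 ratios, hypoxic over aerobic, so a negative value means less of the messenger in hypoxia relative to all labelled RNA, and a ratio cannot show absolute amounts. In these bulk cultures, fewer cells with a messenger and less of it per cell cannot be told apart. HAP1's own ratio was 0.47, 0.56 and 0.72 on hap1 deletion replicates 1 to 3 and 0.84, 0.50 and 1.10 on wild-type replicates 1 to 3. Since both dyes of an array hold RNA of 1 strain, these ratios do not check the deletion.

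As background, assembly begins while RNA polymerase I is still transcribing the ribosomal RNA. Early factors and DEAD-box RNA helicases fold the precursor, later factors process the spacer between the rRNAs, GTPases check the maturing particle, and export factors take it through the nuclear pore. Genes for these factors are known in yeast as a regulon that is transcribed together with growth and lowered in many stresses.

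The median of the assembly factor genes was below that of all genes on every array, in both strains. On an array 31 to 39 of them were below 0, beside 51.3% to 55.1% of all genes tested. The median of the 39 genes was -0.40, -0.90 and -1.45 on hap1 deletion replicates 1, 2 and 3, against -0.94, -1.04 and -1.20 on wild-type replicates 1, 2 and 3. The median of all genes tested lay between -0.07 and -0.02 on the 6 arrays. Of the 39 genes, 31 were below 0 on all 3 hap1 deletion arrays, where 28.6% of all genes with these values were, and 37 were below 0 on all 3 wild-type arrays, where 28.3% were. On all 6 arrays together 29 genes were below 0, beside 15.8% of all genes, 9 were below 0 on 5 arrays and NOC3 on 4.

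**Figure D1:**
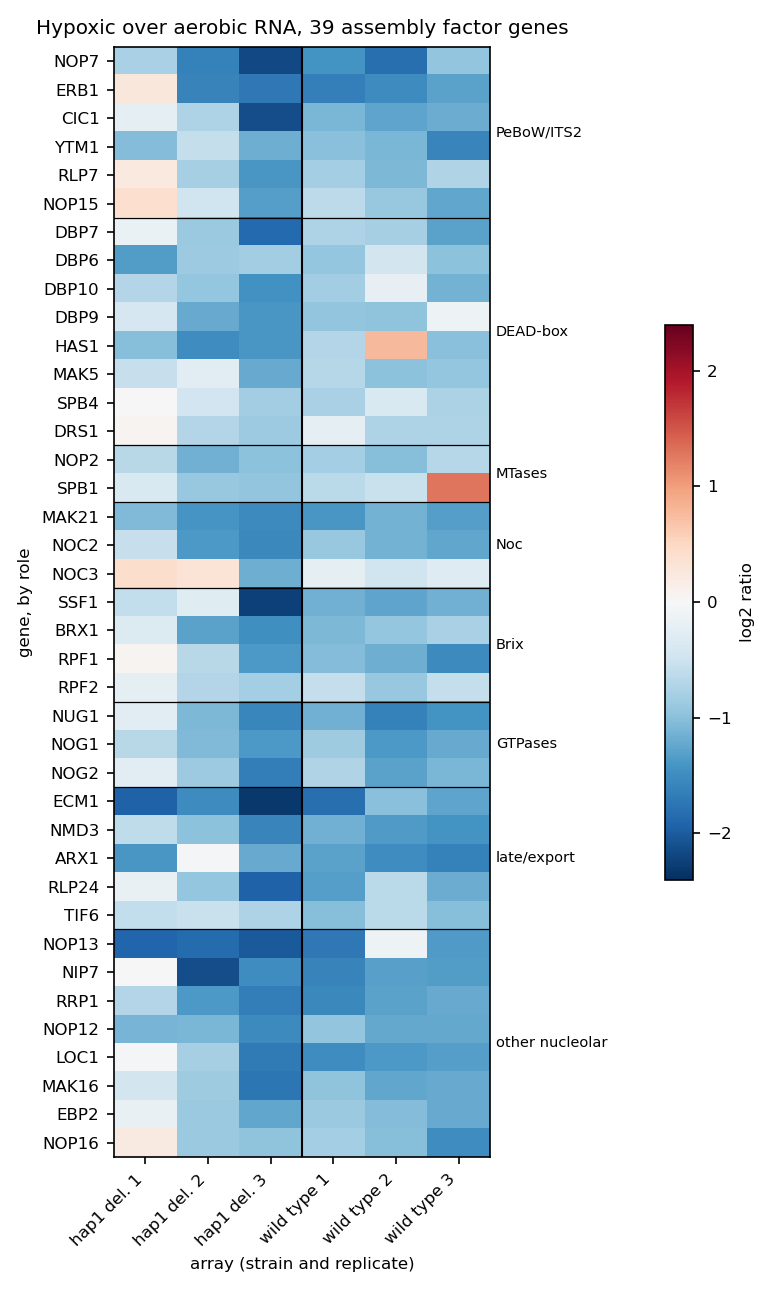
Log2 ratio of hypoxic over aerobic RNA (colour, blue lower in hypoxia) for 39 assembly factor genes (rows, grouped by role and sorted by their average) on 3 hap1 deletion and 3 wild-type arrays (columns). Most cells are blue, hap1 deletion replicate 1 is the palest column, and HAS1 on wild-type replicate 2 and SPB1 on wild-type replicate 3 stand out as positive.

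The hap1 deletion arrays differed from each other more than the wild-type arrays did. For 26 of the 39 genes the highest of the 6 values was on hap1 deletion replicate 1, which held the highest value of 22.3% of all genes with 6 values. For 27 the lowest was on hap1 deletion replicate 3, which held the lowest value of 16.2% of all genes. The median SD of a factor gene was 0.53 between hap1 deletion arrays and 0.22 between wild-type arrays (SD, n = 3 each), against 0.37 and 0.33 over all genes with 3 values. The median position of the factor genes within an array showed the same: 26.4% of all genes lay below it on hap1 deletion replicate 1 and 3.43% on replicate 3, against 4.64% to 9.66% on the wild-type arrays. Hap1 deletion replicate 1 also had the most missing values, 678, against 15 to 349 on the other arrays.

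**Figure D2:**
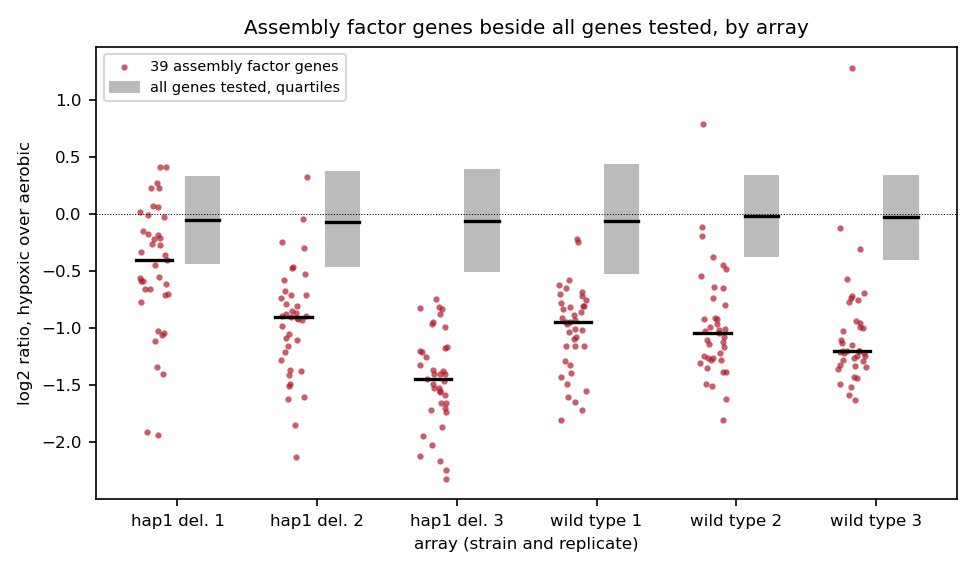
Log2 ratio of hypoxic over aerobic RNA on each array, with red points for the 39 assembly factor genes and a grey box from the lower to the upper quartile of all genes tested; black lines are medians. The medians of the factor genes run from -0.40 to -1.45, all below the lines of all genes at -0.07 to -0.02.

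The mean of both strains, which rests on all 6 arrays, gave the most precise value per gene. It was tested with limma over 6208 genes, with Benjamini-Hochberg adjustment and a threshold of 0.05. Of the 39 factor genes 32 fell, beside 9.52% of all genes tested. None rose, beside 7.44% of all genes, and 7 did not pass. None was above 0 with an unadjusted p under 0.05, where 15% of all genes were. The median was -0.98, against -0.04 over all genes. In the ranking of all genes by this mean, 27 of the 39 lay in the lowest 5% and 34 in the lowest 10%. Leaving out hap1 deletion replicate 1, 2 or 3 gave 36, 18 and 25 falls, and leaving out wild-type replicate 1, 2 or 3 gave 20, 19 and 18. The 36 were the 32 of the full fit with DRS1, NOP15, RLP7 and SPB4 added. The share of all genes that fell in these fits was 9.94%, 3.08% and 5.23% without hap1 deletion replicate 1, 2 or 3 and 5.25%, 3.59% and 4.18% without wild-type replicate 1, 2 or 3, and 4.27% with a dye term. Whichever array was left out, 16 genes fell: ARX1, DBP6, ECM1, MAK16, MAK21, NMD3, NOC2, NOG1, NOP12, NOP13, NOP2, NOP7, NUG1, RRP1, TIF6 and YTM1. These 16 also fell with a term for the dye, which left 24 falls in all. The same count over all genes was not made. In the fit with the fewest falls, without hap1 deletion replicate 2, 3.08% of all genes fell.

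**Figure D3:**
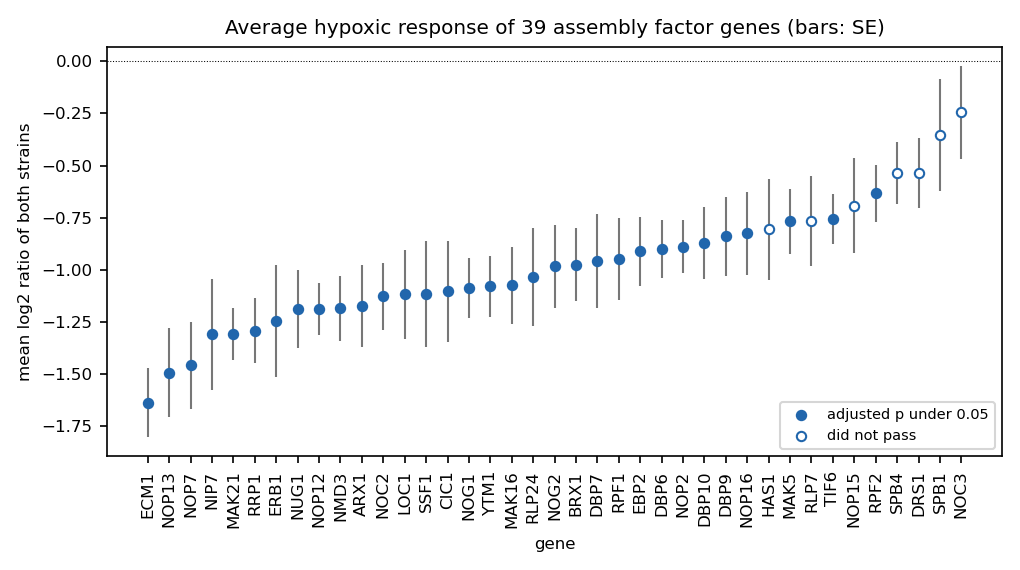
Mean log2 ratio of both strains for each of 39 genes (horizontal axis, lowest first), with the moderated SE as bars; filled points passed limma's test at an adjusted p under 0.05 and open points did not. The genes run from ECM1 at -1.64 to NOC3 at -0.25, and 32 points are filled.

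The helicases DBP6, DBP7 and DBP9 belong to the earliest large-subunit particles in yeast, and MAK5, DBP10, DRS1, SPB4 and HAS1 act on the RNA at later nucleolar steps. Of the 8 DEAD-box helicase genes 5 fell in the mean of both strains, beside 9.52% of all genes, and 3 did not pass. Their median was -0.82. Counts by role, here and below, are from the full fit and were not made with an array left out. DBP6 (YNR038W) read -1.34, -0.86 and -0.83 on hap1 deletion replicates 1 to 3 and -0.93, -0.44 and -0.99 on wild-type replicates 1 to 3. All of these values were negative, and the ranges of the strains overlapped. DBP6 fell by 0.90 ± 0.14 (SE, n = 6) in the mean of both strains (limma adjusted p = 0.0108). DBP7 (YKR024C) averaged -0.96, DBP10 (YDL031W) -0.87, DBP9 (YLR276C) -0.84 and MAK5 (YBR142W) -0.77, and all of them passed. SPB4 (YFL002C) had -0.54 ± 0.15 (adjusted p = 0.0509) and DRS1 (YLL008W) -0.53 ± 0.17 (adjusted p = 0.0701), so these lay just outside the threshold.

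HAS1 (YMR290C), a helicase that serves both subunits, was the member with the largest difference between strains in value. It read -1.02, -1.49 and -1.41 in the hap1 deletion and -0.70, 0.78 and -1.00 in wild type. The wild-type value above 0 came from replicate 2, and the other 5 arrays were negative. The mean of both strains was -0.81 ± 0.24 and did not pass (adjusted p = 0.0628).

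The Noc proteins form pairs that travel with the particle, MAK21 (also called Noc1) with NOC2 early and NOC2 with NOC3 later. MAK21 (YDR060W) read -1.06, -1.41 and -1.53 in the hap1 deletion and -1.39, -1.14 and -1.33 in wild type. It fell by 1.31 ± 0.12 in the mean of both strains (adjusted p = 0.00232), a 2.48-fold fall, and all 6 values lay between -1.53 and -1.06. NOC2 (YOR206W) read -0.56, -1.38 and -1.55 in the hap1 deletion and -0.91, -1.13 and -1.24 in wild type, and fell by 1.13 ± 0.16 (adjusted p = 0.00861). NOC3 (YLR002C), which also has a role in DNA replication initiation, read 0.41, 0.32 and -1.18 in the hap1 deletion and -0.24, -0.48 and -0.31 in wild type. Its mean, -0.25 ± 0.22, was the smallest of the 39 in size and did not pass (adjusted p = 0.472).

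NOP7, ERB1 and YTM1 form the yeast counterpart of the PeBoW complex. RLP7, NOP15 and CIC1 bind an internal spacer between rRNAs of the large subunit. Of these 6 genes 4 fell and 2 did not pass, with a median of -1.09. NOP7 (YGR103W) read -0.77, -1.62 and -2.17 in the hap1 deletion and -1.43, -1.80 and -0.95 in wild type. It fell by 1.46 ± 0.21 (adjusted p = 0.00861), the third lowest mean of the list. ERB1 (YMR049C) read 0.27, -1.60 and -1.72 in the hap1 deletion and -1.64, -1.51 and -1.28 in wild type, so only hap1 deletion replicate 1 lay above 0. ERB1 fell by 1.25 ± 0.27 (adjusted p = 0.0263). YTM1 (YOR272W) averaged -1.08 and CIC1 (YHR052W) -1.10, and both passed. RLP7 (YNL002C) had -0.77 ± 0.21 (adjusted p = 0.0521) and NOP15 (YNL110C) -0.69 ± 0.23 (adjusted p = 0.0792), and both were above 0 on hap1 deletion replicate 1, at 0.23 and 0.41.

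The methyltransferases NOP2 and SPB1 modify large-subunit rRNA, NOP2 at a cytosine base and SPB1 at ribose. NOP2 (YNL061W) read -0.66, -1.15 and -0.99 in the hap1 deletion and -0.81, -1.03 and -0.69 in wild type. It fell by 0.89 ± 0.13 (adjusted p = 0.00855), and its 6 values were all negative and close together. SPB1 (YCL054W) read -0.36, -0.91 and -0.95 in the hap1 deletion and -0.64, -0.54 and 1.28 in wild type. The value of 1.28 on wild-type replicate 3 was the highest of any factor gene on any array, and SPB1 did not pass (-0.35 ± 0.27, adjusted p = 0.390).

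Proteins with a Brix domain bind rRNA within the particle: BRX1 works beside EBP2, RPF1 beside MAK16, and RPF2 helps to bring in the 5S rRNA. All 4 Brix-domain genes fell in the mean of both strains, with a median of -0.96. SSF1 (YHR066W) had -1.12 ± 0.25 (adjusted p = 0.0298), BRX1 (YOL077C) -0.98 ± 0.17, RPF1 (YHR088W) -0.95 ± 0.20 and RPF2 (YKR081C) -0.63 ± 0.14 (adjusted p = 0.0254). RPF2 was the smallest fall among the factor genes that passed. SSF1 read -0.59, -0.30 and -2.24 in the hap1 deletion and -1.16, -1.26 and -1.15 in wild type. SSF2, its close paralogue in yeast, read 1.64, 0.23 and 0.96 in the hap1 deletion and 0.67, 0.13 and 0.01 in wild type, and did not pass (0.61 ± 0.20, adjusted p = 0.0830). SSF1 was below 0 and SSF2 above 0 on all 6 arrays. The coding sequences of the pair are similar and their spots may share signal, so both values are uncertain, and the difference between the pair was not tested.

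The GTPases NOG1, NOG2 and NUG1 bind the nucleolar and nuclear particle, and all 3 of their genes fell. NOG1 (YPL093W) read -0.66, -1.05 and -1.37 in the hap1 deletion and -0.86, -1.38 and -1.20 in wild type. It fell by 1.09 ± 0.14 (adjusted p = 0.00722). NUG1 (YER006W) fell by 1.19 ± 0.19 and NOG2 (YNR053C) by 0.98 ± 0.20.

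All 5 genes for late and export factors fell, with a median of -1.18. ECM1 (YAL059W), which helps to export the subunit, had the lowest mean of all 39 genes. It read -1.93, -1.50 and -2.32 in the hap1 deletion and -1.80, -1.01 and -1.26 in wild type. ECM1 fell by 1.64 ± 0.17 (adjusted p = 0.00289), a 3.11-fold fall. NMD3 (YHR170W), the adaptor to the export receptor Crm1, read -0.62, -0.98 and -1.58 in the hap1 deletion and -1.15, -1.35 and -1.43 in wild type. It fell by 1.19 ± 0.15 (adjusted p = 0.00695). ARX1 (YDR101C), an export factor bound near the exit tunnel, fell by 1.18 ± 0.20, although hap1 deletion replicate 2 read only -0.05. TIF6 (YPR016C), which keeps the subunits from joining too early, read between -0.53 and -1.02 on the 6 arrays and fell by 0.76 ± 0.12 (adjusted p = 0.0115).

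RLP24 (YLR009W) holds a place in the particle that ribosomal protein L24 takes in the cytoplasm. It read -0.18, -0.93 and -1.94 in the hap1 deletion and -1.32, -0.65 and -1.20 in wild type, and fell by 1.04 ± 0.23 (adjusted p = 0.0297). Both genes of its ribosomal counterpart passed as well, RPL24A with -0.85 ± 0.17 and RPL24B with -0.77 ± 0.18. RPL24A and RPL24B are close copies, so their spots may share signal. For RLP7 the ribosomal counterparts were RPL7A, which fell by 0.48 ± 0.12, and RPL7B, which had -0.43 ± 0.13 and did not pass (adjusted p = 0.0625). RPL7A and RPL7B are close copies as well, so their spots may share signal, and their difference was not tested.

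The remaining nucleolar members all fell in the full fit, 8 of 8, beside 9.52% of all genes, with a median of -1.15. NOP13 (YNL175C), a nucleolar RNA-binding protein, read -1.91, -1.85 and -2.02 in the hap1 deletion and -1.71, -0.12 and -1.36 in wild type. Its values in the hap1 deletion were the closest together of the 39 genes (SD 0.09), while wild-type replicate 2 was near 0. NOP13 fell by 1.49 ± 0.21 (adjusted p = 0.00855). RRP1 (YDR087C), a factor of spacer processing, read -0.71, -1.37 and -1.65 in the hap1 deletion and -1.55, -1.28 and -1.20 in wild type. NOP12 (YOL041C), also an RNA-binding protein, read -1.11, -1.10 and -1.52 in the hap1 deletion and -0.94, -1.22 and -1.22 in wild type. RRP1 fell by 1.29 ± 0.16 and NOP12 by 1.19 ± 0.12, and neither gene had a value above -0.70.

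NIP7 (YPL211W), an RNA-binding factor, read 0.01, -2.13 and -1.49 in the hap1 deletion and -1.60, -1.31 and -1.34 in wild type. It fell by 1.31 ± 0.27 (adjusted p = 0.0219). LOC1 (YFR001W), which also takes part in localising ASH1 messenger, read -0.02, -0.79 and -1.70 in the hap1 deletion and -1.49, -1.38 and -1.32 in wild type. Both genes were near 0 on hap1 deletion replicate 1 alone. LOC1 fell by 1.12 ± 0.21, MAK16 (YAL025C) by 1.08 ± 0.18, EBP2 (YKL172W) by 0.91 ± 0.16 and NOP16 (YER002W) by 0.83 ± 0.20. NOP4, read from YPL043W and not counted among the 39, had -0.68, -0.88 and -1.12 in the hap1 deletion and -0.71, -1.75 and -1.34 in wild type, and fell by 1.08 ± 0.16 (adjusted p = 0.0103).

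Within each strain fewer genes passed. In the hap1 deletion 11 of the 39 fell, beside 1.82% of all genes, none rose, beside 2.5%, and 28 did not pass. At an unadjusted p under 0.05, 31 had a mean below 0, beside 14% of all genes, and 0 had a mean above 0, beside 10.7%. The lowest means were NOP13 (-1.93 ± 0.09), ECM1 (-1.92 ± 0.41) and NOP7 (-1.52 ± 0.70), and the highest were NOC3 (-0.15 ± 0.89), SPB4 (-0.43 ± 0.41) and NOP15 (-0.46 ± 0.87; SD, n = 3 each). Of these 6 only NOP13, ECM1 and NOP7 passed. The fit shares 1 residual spread per gene between the strains. Leaving out hap1 deletion replicate 1, 2 or 3 gave 9, 1 and 0 falls, leaving out wild-type replicate 1, 2 or 3 gave 7, 5 and 4, and a dye term gave 4. The falls among all genes, 1.82% in the full fit, were 0.96%, 0.072% and 0.23% without hap1 deletion replicate 1, 2 or 3, 1.81%, 0.71% and 0.73% without wild-type replicate 1, 2 or 3, and 0.50% with a dye term.

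In wild type 11 of the 39 fell, beside 2.32% of all genes, none rose, beside 1.92%, and 28 did not pass. At an unadjusted p under 0.05, 36 had a mean below 0, beside 13.1% of all genes, and 0 had a mean above 0, beside 11%. The lowest means were ERB1 (-1.48 ± 0.19), ARX1 (-1.47 ± 0.17) and NIP7 (-1.42 ± 0.16), of which ARX1 passed (adjusted p = 0.0416). The highest were SPB1 (0.03 ± 1.08), HAS1 (-0.31 ± 0.96) and NOC3 (-0.34 ± 0.12; SD, n = 3 each), and none of these passed. Leaving out hap1 deletion replicate 1, 2 or 3 gave 21, 2 and 20 falls, and leaving out any of the wild-type replicates gave 0, as did a dye term. The falls among all genes, 2.32% in the full fit, were 3.36%, 0.47% and 3.33% without hap1 deletion replicate 1, 2 or 3, 0.39%, 0.032% and 0.051% without wild-type replicate 1, 2 or 3, and 0.23% with a dye term.

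Of the 11 falls in each strain 7 were shared, ECM1, MAK21, NMD3, NOC2, NOG1, NOP12 and RRP1, which is 63.6% of either strain's. Over all genes tested 47 falls were shared, 41.6% of the 113 in the hap1 deletion and 32.6% of the 144 in wild type. Both tests use the residual spread that the strains share, so the calls are not independent. Fitting each strain alone gave 2 falls in the hap1 deletion and 0 in wild type, beside 0.18% and 0.032% of all genes. The member calls in the hap1 deletion alone were DBP6, NOP13, NOP2 and NOP7, and those in wild type alone were ARX1, NUG1, TIF6 and YTM1. In the mean of both strains 17 further genes of the 39 passed that passed in neither strain. Over all genes tested 591 (9.52%) fell in that mean, against the 113 and 144 in the strains. How many of the 591 fell in neither strain was not counted. The strain means correlated across the 39 genes at r = 0.43 (Spearman's rho = 0.43), against r = 0.55 across all genes tested, with no array in common and genes that are not independent replicates.

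Whether the response of these genes depended on HAP1 was asked by the difference between strains, hap1 deletion minus wild type. None of the 39 passed limma's test in either direction, beside 0.0483% of all genes lower and 0.306% higher, and none had an unadjusted p under 0.05, beside 7.97% of all genes. The differences ran from -1.00 ± 0.48 for HAS1 (SE, adjusted p = 0.680) to 0.58 ± 0.39 for ARX1 (adjusted p = 0.733), with NOP13 at -0.86 ± 0.43 and SPB1 at -0.77 ± 0.54 the next in size. None of these differences could be told from 0, with SEs from 0.24 for TIF6 to 0.54 for SPB1 (median 0.37). A true difference of such a size or smaller may have been missed. The median difference of the 39 genes was 0.12, with 25 genes above 0 and 14 below. Over all genes tested the median was -0.03, with 2944 of 6208 above 0. Without hap1 deletion replicate 1 the median difference of the 39 genes was -0.18.

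**Figure D4:**
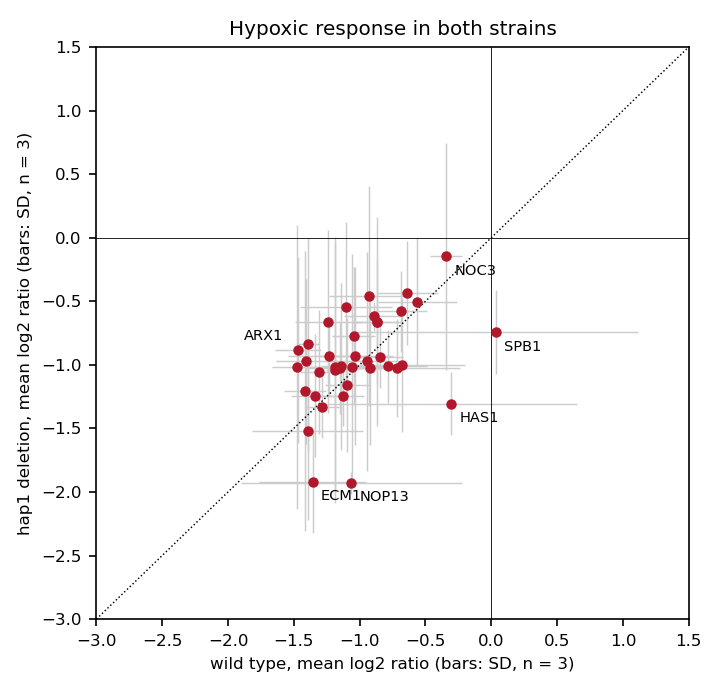
Mean log2 ratio of each of 39 assembly factor genes in the hap1 deletion (vertical axis) and in wild type (horizontal axis), with bars for the SD over 3 arrays and a dotted line of equal values. Points scatter around the line, HAS1, NOP13 and SPB1 lie below it and ARX1 above it, and none of the differences passed the test.

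The dyes were swapped on replicate 2 of each strain, where the hypoxic RNA carried Cy3, while it carried Cy5 on replicates 1 and 3. Averaged over the 4 arrays with hypoxic RNA in Cy5 the median of the factor genes was -1.03, and all 39 were below 0. Averaged over the 2 arrays with hypoxic RNA in Cy3 the median was -0.97, and all 39 were again below 0. The shares of all genes below 0 in these averages were 54.4% and 53.3%.

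Other lists of ribosome synthesis genes also had medians below 0 in the mean of both strains, where 9.52% of all genes fell. Of 33 other factors of the large subunit 26 fell and 7 did not pass, with a median of -0.93, led by SDA1 (-1.39 ± 0.19) and CGR1 (-1.33 ± 0.20), both of which act in the nucleolar or nuclear particle. Of 55 factors of the small subunit 34 fell and 21 did not pass, with a median of -0.73, led by UTP23 (-1.53 ± 0.21) and ENP2 (-1.50 ± 0.20). Of 8 genes of RNA polymerase I and its initiation factor RRN3, 4 fell and 4 did not pass, among them the subunit genes RPA43 (-1.20 ± 0.18) and RPA34 (-1.17 ± 0.21). No gene of these lists rose, also at an unadjusted p under 0.05, and URB1 (0.39), UTP20 (0.34) and RPA14 (0.30), the highest of each list, did not pass. With hap1 deletion replicate 1, 2 or 3 left out, 38, 14 and 21 small-subunit factors fell, and with wild-type replicate 1, 2 or 3 left out, 20, 18 and 17 did. For the other large-subunit factors the lowest count was 17, without wild-type replicate 3, and for RNA polymerase I it was 2, without replicate 2 of either strain.

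Genes for the ribosomal proteins themselves showed smaller values. Of 77 large-subunit protein genes 25 fell, 1 rose and 51 did not pass, with a median of -0.43, and RPL25 (-1.24 ± 0.24) and RPL34A (-1.00 ± 0.15) were the largest in size. The rise was that of RPL43B (0.83 ± 0.13, adjusted p = 0.0119). Its close copy RPL43A, whose spot may share signal with it, had -0.36 ± 0.15 and did not pass (adjusted p = 0.151). Of 55 small-subunit protein genes 11 fell and 44 did not pass, with a median of -0.41, led by RPS1B (-0.95 ± 0.12) and RPS2 (-0.76 ± 0.15). Without hap1 deletion replicate 1, 2 or 3 the falls numbered 27, 1 and 9 for the large subunit and 21, 1 and 2 for the small, and without wild-type replicate 1, 2 or 3 they numbered 8, 5 and 6 for the large and 2, 1 and 2 for the small. The falls among all genes dropped in the same fits, to 172 to 308, against 591 in the full fit, except without hap1 deletion replicate 1, where they numbered 610. The medians of the large-subunit assembly factors were lower than those of the large-subunit proteins on each of the 6 arrays, -0.40, -0.90 and -1.45 against -0.14, -0.66 and -0.56 in the hap1 deletion and -0.94, -1.04 and -1.20 against -0.66, -0.23 and -0.39 in wild type. The difference between the lists was not tested.

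Among 8 regulators of these genes 1 fell, beside 9.52% of all genes, and 7 did not pass. The fall was that of TOD6 (-0.75 ± 0.19, adjusted p = 0.0407), which together with DOT6 represses ribosome synthesis genes. CRF1, a corepressor of ribosomal protein genes, had the largest value, 1.74 ± 0.78, and did not pass (adjusted p = 0.177). It read 2.15, 1.85 and -2.60 in the hap1 deletion and 1.80 and 4.21 on wild-type replicates 1 and 2, with no value on replicate 3. The fall of TOD6 was not called when any array other than hap1 deletion replicate 1 was left out, nor with centred arrays or a dye term.

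General stress genes were read on the same arrays, since yeast in stress lowers ribosome synthesis as it raises these genes. Of 22 such genes 10 rose in the mean of both strains, beside 7.44% of all genes, and 12 did not pass, with a median of 1.24, led by HSP12 (3.35 ± 0.66) and TFS1 (3.03 ± 0.65). By array the stress median was -0.45, 0.59 and 2.03 on hap1 deletion replicates 1 to 3 and 1.94, 1.35 and 0.81 on wild-type replicates 1 to 3. In the hap1 deletion the array with the lowest stress median had the weakest decrease of the assembly factors, and in wild type the order of the arrays was the opposite. The rises of stress genes numbered 12, 0 and 5 without hap1 deletion replicate 1, 2 or 3 and 3, 3 and 6 without wild-type replicate 1, 2 or 3. Rises among all genes were not counted in these fits, so whether the changes were particular to stress genes cannot be told. Falls among all genes went from 591 in the full fit to 172 without hap1 deletion replicate 2. On hap1 deletion replicate 1 only 18 of the 22 stress genes had a value. The part of a stress or growth state in the decrease of the assembly factors was not tested.

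**Figure D5:**
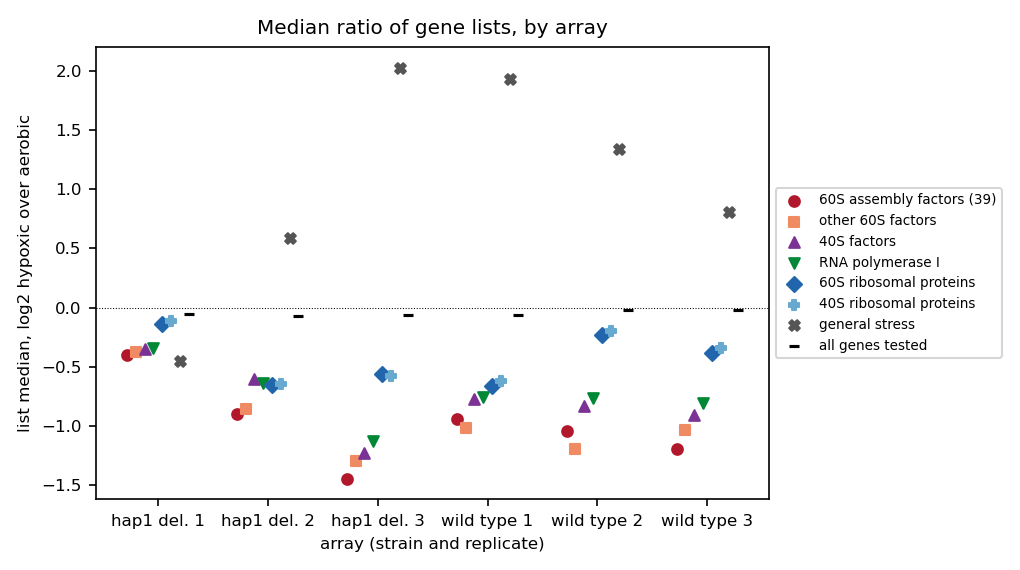
Median log2 ratio of hypoxic over aerobic RNA (vertical axis) of 8 groups of genes on each array (horizontal axis, strain and replicate). The assembly factors (red circles, -0.40 to -1.45) lie below the ribosomal proteins on all 6 arrays, and the general stress median runs from -0.45 on hap1 deletion replicate 1 to 2.03 on hap1 deletion replicate 3.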

How the data were processed

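Spots were quantified by the authors with GenePix, per the labels. No source used here states a background correction, spot filter or normalization. The deposited ratios run aerobic over hypoxic, per the labels' titles, on a log10 scale that no header states. That base was read off the 36476 values, of which 242 equal a fraction of whole numbers with a denominator up to 30 (relative tolerance 7e-08) under base 10 and 6 do under base 2. Array medians of the deposited values lay between 0.00540 and 0.0218. The dye-swapped replicate 2 arrays correlated with the others of their strain at r from 0.457 to 0.575 across genes, so the ratios were taken as turned one way. Each ratio was then inverted and put on the log2 scale.

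Genes with at least 2 values per strain were tested (6208, leaving 74) with limma 3.58.1 in R 4.3.3 (lmFit, eBayes, two-sided), with 1 mean per strain, their difference and their mean as contrasts, 4 residual and 2.97 prior degrees of freedom, and Benjamini-Hochberg adjustment over all genes tested. The script was tested on simulated data. The precision is limited by 3 arrays per strain.

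Symbols came from RefSeq's gene table (assembly R64), which named 5156 rows by symbol; the build behind the array is not given, so no coordinates are printed. The members, the role groups and the other lists were chosen with earlier results of these data known. All 39 members are named, with the 2 genes largest in size of each other list and the paralogues of members. A search for promoter motifs was planned and not run, since no sequences were used here. Alternatives were centring, scaling, quantile normalization, a replicate block, a dye term, complete values, separate fits, a robust prior and leaving out each array.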

Additional observations from a re-analysis of the deposited data

How the results depend on the processing

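Under every alternative run the median of the 39 genes moved by less than the SD between array medians. This held in each strain and in the mean of both. That SD was wide in the hap1 deletion, where array medians ran from -0.40 to -1.45. Leaving out 1 array can hardly move a median further than this SD, so those fits do not show that the median was stable. No called member changed sign. No member rose, and none passed for the difference, under any alternative run. The median difference ran from -0.18 to 0.40 when 1 array was left out. The counts of falls depended on the fit. Replicate numbers were not used as pairs in the full fit. Deviations of same-numbered arrays from their strain means correlated at -0.02, 0.06 and 0.13, and those of unlike-numbered arrays at -0.15 to 0.11. Such values cannot show whether the cultures were paired. With a replicate block the falls numbered 1 in the hap1 deletion and 0 in wild type, beside 7 and 2 of all genes tested. In the mean of both strains they numbered 25, beside 261 of all genes tested. A dye term gave 4 and 0, beside 0.50% and 0.23% of all genes. Fitting each strain alone gave 2 and 0, beside 0.18% and 0.032%. Scaled arrays gave 5 in the hap1 deletion, beside 1.14%, and 16 in wild type, beside 2.75%. Among genes with all 6 values 13 of the 39 fell in the hap1 deletion, 17 in wild type and 34 in the mean of both strains. The shares of all 5301 such genes that fell were 3.43%, 3.90% and 11.7%. Leaving out 1 array gave 0 to 9 falls in the hap1 deletion, 0 to 21 in wild type and 18 to 36 in the mean of both strains. A replicate block, a dye term or 1 array fewer leaves fewer residual degrees of freedom. Among single members, of all comparisons with an alternative, 1828 kept their side of the threshold, 231 lost a call and 47 gained one. Signal over background could not be read from the deposited ratios.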
